A study of Mus musculus with 24 samples.

Results

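Nrap and Gm5532 are the gene symbols of 2 long noncoding RNA (lncRNA) probes on the Arraystar mouse lncRNA array, and both belong to the 104 lncRNAs that the study listed as heart-specific. A lncRNA is a long transcript that is not known to encode a protein. Each of the 2 symbols has 1 probe in that list, for the transcripts ENSMUST00000169099 (Nrap) and ENSMUST00000097531 (Gm5532), among 60804 transcript probes on the array, and each probe has 1 spot per array. Both were chosen from their levels in the 15 tissue arrays: the study asked for detection in all heart arrays, for a call of absence in the other tissues, and for a higher level in heart than in each of them. High signal in heart and lack of detection on the 12 other tissue arrays were thus part of the choice, and the levels in all 5 tissues are given as a description, with no test.

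Nrap, the nebulin-related anchoring protein, is a muscle protein with a LIM domain and nebulin-type repeats. It binds actin and is found at the intercalated discs of heart muscle and at the ends of skeletal muscle fibres, and it is known for its part in the assembly of myofibrils. The probe read here stands for a noncoding transcript that carries this gene's symbol, and its sequence was not used here. It was not settled whether that transcript belongs to Nrap itself or to Gm17197, a lncRNA gene that lies inside Nrap, so every value given under Nrap may be one of Gm17197. Whether the probe also binds the Nrap mRNA was not tested. Gm5532 is a lncRNA gene for which no role is given in the sources used here.

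The arrays covered brain, heart, kidney, liver and testis of male ICR mice aged 8 weeks, an outbred stock, and, as lines grown in culture, the mouse cells F9, GC-1 and GC-2, with 3 arrays for each of the 8 groups. F9 is an embryonal carcinoma line, and GC-1 and GC-2 are immortalized lines with features of spermatogonia and spermatocytes. The tissue samples were biological replicates, while nothing says whether the replicates of a line came from separate cultures, so p-values for the lines measure only the spread between these samples. None of the 3 lines is of heart or muscle origin. In a whole tissue, fewer cells of a type and less RNA per cell cannot be told apart.

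In the RefSeq annotation of GRCm38.p6, Nrap is a protein-coding gene at chr19:56320037-56390062, a span of 70026 bases. Gm17197 lies at chr19:56356684-56366385, and Habp2, which encodes a plasma serine protease, overlaps the end of Nrap. Gm5532 is annotated as lncRNA at chr1:155520173-155527111 and has 1 RefSeq transcript, and the nearest protein-coding gene, Acbd6, lies 30988 bases away. Within 100 kb, RefSeq holds 8 other genes around Nrap and 3 around Gm5532. None of these 11 genes had a probe that could be identified here, so the surroundings of the 2 genes were not measured.

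The 250 bases before the annotated RefSeq start sites are shown because both probes were bright in the same tissue, and they let the promoters be set side by side. For Nrap, which has 7 RefSeq transcripts, 1 start site was used, and the last 24 bases of its stretch lie inside the annotated gene. For Gm5532 the start site is that of its RefSeq transcript. Neither may be the start of the array transcript. Both genes lie on the minus strand and are printed 5′ to 3′ in gene orientation, and capitals mark matches, on either strand, to the motifs of factors known in muscle or to the TATA box. The Nrap stretch is chr19:56390039-56390288 and the Gm5532 stretch is chr1:155527112-155527361.
Nrap: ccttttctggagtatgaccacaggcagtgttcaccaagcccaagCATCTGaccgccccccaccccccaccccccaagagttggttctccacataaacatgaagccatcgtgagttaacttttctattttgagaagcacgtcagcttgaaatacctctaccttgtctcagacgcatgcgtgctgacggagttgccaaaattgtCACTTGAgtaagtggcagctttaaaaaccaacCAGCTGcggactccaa
Gm5532: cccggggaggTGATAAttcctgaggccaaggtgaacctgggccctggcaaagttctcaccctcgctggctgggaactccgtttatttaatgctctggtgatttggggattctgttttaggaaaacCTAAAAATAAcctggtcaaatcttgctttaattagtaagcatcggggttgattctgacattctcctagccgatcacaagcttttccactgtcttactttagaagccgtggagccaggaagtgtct

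The pair shared no motif of the 7 searched. Nrap held 3 E-boxes (CANNTG, the element read by muscle factors of the MyoD type and by many others), at positions -206, -48 and -16 from the start site, of which the last lies within the annotated gene, and 66.2% of the 32851 RefSeq promoters of this length held at least 1. The second of them overlapped a match on the opposite strand to the NKX2 motif (TNAAGTG), which 10.1% of promoters held. Gm5532 held 1 match to the MEF2 consensus, the element of the myocyte enhancer factor 2 family, from position -125 to -116, and 2.92% of promoters held one. It also held 1 GATA-type match (NGATAA) at -240, a motif found in 22.5% of promoters. Neither stretch held a CArG box (1.47% of promoters), an MCAT element (CATTCC, 12.6%) or a TATA box (TATAAA, 12.4%). The GC content of the Gm5532 stretch was 47.2%, against a median of 52.4% over all promoters. These matches are letters in a window and say nothing of whether a factor binds there.

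The array signal was read as deposited by the authors, that is, as the processed intensity of each spot after background subtraction by the scanner software. A spot counted as detected where the software flagged it as well above background. For comparisons between arrays log2 intensities were taken relative to the array's 75th percentile, so that a level of 0 stands for that percentile. It corresponded to intensities from 30.7 to 384, and 18257 to 37393 probes were detected per array. The 95th percentile of the negative control probes lay between 2.97 and 4.97 except on liver replicate 1, where it was 13.6. The tissues could not be checked independently against markers. Snap25, Apoa1 and Zfp42, identified for brain, liver and embryonal carcinoma, were detected on all 3 arrays of brain, liver and F9, respectively, and on no heart array. Zfp42 was also detected on all 3 testis arrays. These probes were named by the study's lists of brain-specific and liver-specific transcripts and, for Zfp42, of testis-specific mRNAs found in F9. Those lists were drawn from these patterns. Gap43, on the brain-specific list too, was detected on all brain and line arrays and on 2 of 3 heart arrays. Of 15 heart muscle markers, the 3 that could be identified (Tnni3k, Myoz2 and Myl3) are on the heart-specific list, and no probe could be identified for the markers of skeletal muscle, smooth muscle, brown fat, red blood cells, kidney, testis or fibroblast-like cells.

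In heart, the Nrap lncRNA had processed intensities of 5703, 2054 and 4192 in replicates 1, 2 and 3. The scanner software's error on these signals was 570, 205 and 419. All 3 heart arrays were far above every other array, and replicate 2 was the lowest of them. On the log2 scale the heart level was 5.53 ± 0.64 (SD, n = 3). Once scaled, the brightest heart array was 2.35-fold above the dimmest.

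Outside heart, the Nrap probe was not well above background on any of the 21 arrays. Its intensities were 2.90, 4.26 and 7.67 in brain, 7.38, 3.97 and 16.5 in kidney, and 6.33, 3.34 and 3.43 in liver. In testis they were 3.46, 11.1 and 14.9. Kidney replicate 3 and testis replicate 3 stood slightly above the rest, and neither was flagged. Both were brighter than the dimmest probe that was flagged on the same array (13.2 and 14.0). In the cell lines the intensities were 4.28, 3.80 and 4.23 for F9, 4.13, 3.58 and 3.34 for GC-1, and 3.51, 3.89 and 3.61 for GC-2. On 7 of the 9 line arrays the signal was below the 95th percentile of the negative controls, and the lines could not be ordered. Over all 21 arrays it was below that percentile on 12, and on 11 it was not significantly positive. On those 11 arrays the processed signal equalled its error to within a ratio of 0.995 to 0.998, so it is a stand-in for background and has no order.

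The Gm5532 lncRNA had intensities of 5504, 4463 and 3852 in heart. The software's error was 550, 446 and 385, and the highest and lowest arrays differed by more than these errors. After scaling the level was 5.84 ± 0.14 (SD, n = 3), and the highest array was 1.19-fold above the lowest. The SD was smaller than that of Nrap, a difference that was not tested. Of the 24179 probes detected on all 3 heart arrays, 84.3% had an SD at least as large as that of Gm5532, while 10.5% had one at least as large as that of Nrap, and the median SD was 0.30.

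By the flag for well above background, the Gm5532 probe was detected on 5 of the 21 other arrays, against 0 for Nrap. Each of the 2 probes was significantly positive on 10 of these 21 arrays, so the contrast between them rests on the stricter flag. In brain its intensities were 16.3, 21.9 and 8.07, of which the first and second were well above background. In testis they were 6.58, 19.2 and 18.9, with replicates 2 and 3 detected. The brain and testis signals were therefore close to the limit of detection and were not found on every array of either tissue. They go against the call of absence that the choice asked for, which the study made with its own software and which was not used here. Of the other 102 heart-specific lncRNAs, 22, 1 and 4 were detected on brain replicates 1, 2 and 3. On those of testis, 19, 3 and 4 were detected. Of all 60804 probes, 33692, 30232 and 31647 were detected in brain and 37393, 34999 and 35813 in testis. For Gm5532, kidney gave 3.42, 3.13 and 4.93 and liver gave 6.38, 10.3 and 4.74, with no array detected. F9 gave 3.40, 3.71 and 3.57, and GC-1 gave 4.15, 3.38 and 3.24, again with none. GC-2 gave 3.43, 56.9 and 3.43, so 1 array of this line stood apart from the other 8 line arrays.

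**Figure D1:**
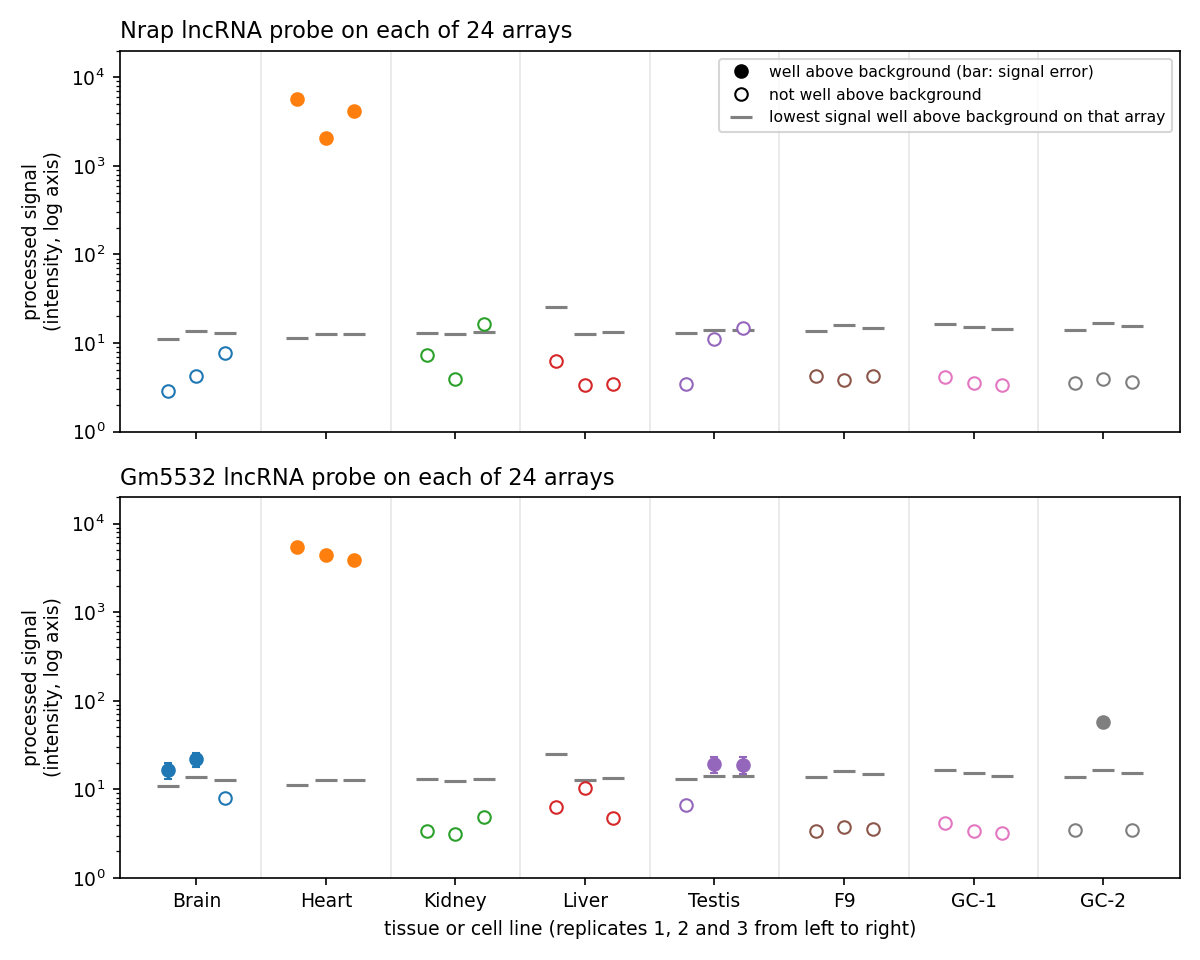
Processed intensity (log axis) of the Nrap probe (top) and the Gm5532 probe (bottom) on each of the 24 arrays, with replicates 1 to 3 of each group from left to right; filled points were well above background, with the software's signal error as a bar, and open points were not. The 3 heart arrays lie between 2054 and 5703, while the highest other array is at 16.5 for Nrap (kidney replicate 3) and 56.9 for Gm5532 (GC-2 replicate 2).

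On GC-2 replicate 2 the Gm5532 spot had a median pixel intensity of 77 over a local background of 25, whereas on the other GC-2 arrays it had 35 over 25 and 34 over 22. The Nrap spot of the same array was at background, with 29 over 25. Of the other 102 heart-specific lncRNAs, 16 (15.7%) were detected on this array, and 16 or 17 on each of the other arrays of GC-1 and GC-2. Of all 60804 probes, 26120 were detected on this array and 26876 to 28655 on each of those others. On exactly 1 of the 9 line arrays, 3912 of the 60804 probes (6.43%) were detected. Of these, 298 (0.49% of all probes) were on GC-2 replicate 2, against 147 to 823 on the other 8. Why the Gm5532 spot was bright on GC-2 replicate 2 was not tested.

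Because both lncRNAs were at or near background outside heart, only lower bounds can be given for their heart level over each other group. The bound sets the mean heart level against the mean, over the group's arrays, of the dimmest signal that passed the background flag there, or of the probe's own signal where that was higher. For Nrap, heart was at least 516-fold higher than brain, at least 280-fold higher than kidney, at least 113-fold higher than liver and at least 1126-fold higher than testis. Against the cell lines, heart was at least 246-fold higher than F9, at least 337-fold higher than GC-1 and at least 366-fold higher than GC-2. The heart arrays overlapped with no other array. The bounds give no order among the 7 groups, since they moved with the scaling of the arrays. The dimmest signal that passed the flag was much the same in liver (12.6 to 25.3) and in testis (13.1 to 14.1), whereas the 75th percentile was 30.7 to 49.8 in liver and 305 to 384 in testis. Under the 3 other scalings, the bound for Nrap ran from 125-fold to 272-fold against liver and from 543-fold to 1024-fold against testis. With the normexp background correction, which adds an offset to all signals, the bounds were lower for every group, from 36.8-fold (liver) to 142-fold (testis).

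For Gm5532 the bounds were similar in size. Heart was at least 481-fold higher than brain (detected on 2 of 3 arrays), 375-fold higher than kidney, 140-fold higher than liver and 1166-fold higher than testis (2 of 3 arrays). It was at least 306-fold higher than F9, 419-fold higher than GC-1 and 303-fold higher than GC-2 (1 of 3 arrays). The last bound rests on GC-2 replicate 2: without it, it was 506-fold. Under the 3 other scalings the bound ran from 154-fold to 339-fold against liver and from 562-fold to 1092-fold against testis. With normexp the bounds ran from 45.7-fold (liver) to 168-fold (testis). The lowest heart array of Gm5532 was, before scaling, 67.7 times as bright as GC-2 replicate 2, the brightest other array.

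**Figure D2:**
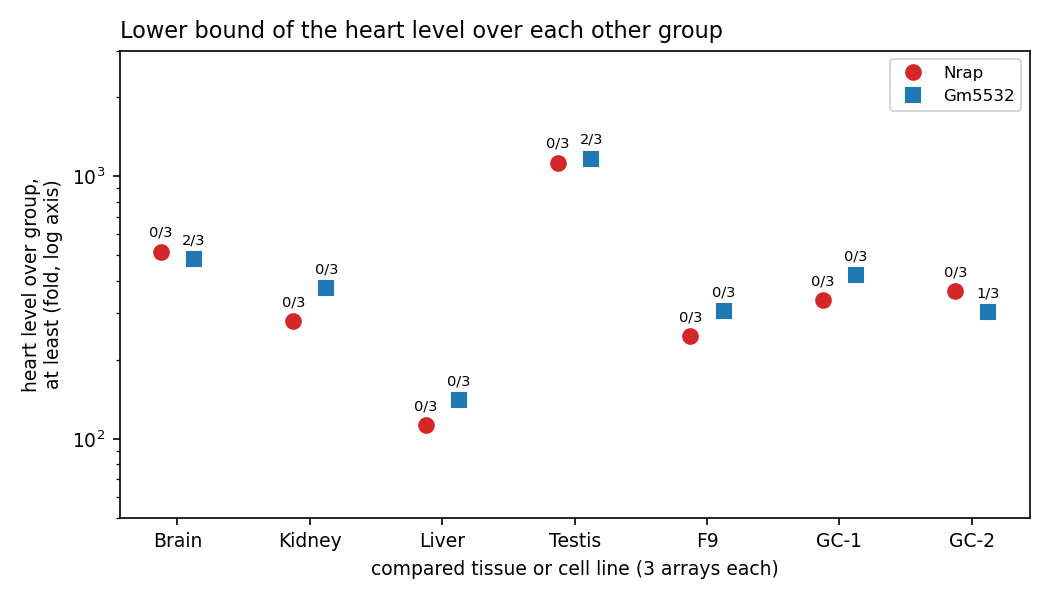
Lower bound of the mean heart level over each of the other 7 groups (fold, log axis) for Nrap (circles) and Gm5532 (squares), with the number of arrays of the compared group, of 3, on which the probe was well above background written above each point. The bounds run from 113 (Nrap against liver) to 1166 (Gm5532 against testis), move with the scaling of the arrays and give no order among the groups.

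The arrays were hybridized on 3 slides, as the barcodes show. Slide 1 held replicate 1 of all 8 groups, slide 3 held replicates 2 and 3 of heart and the lines, and slide 2 held those of the other 4 tissues. Within slide 1, heart was above each of the other 7 arrays by at least 6.71 (Nrap) and 6.66 (Gm5532) on the log2 scale. Within slide 3, the lower heart array was above each line array by at least 6.95 for Nrap, and for Gm5532 it was 6.84 above GC-2 replicate 2, the highest of them. Slide 2 held no heart array. High signal on every heart array and absence in the other tissues were part of the choice, so these distances are a description. Only the line arrays had no part in it. For replicates 2 and 3 the slide and the tissue cannot be told apart between heart and the other 4 tissues.

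In the lines, which the choice of the heart-specific list did not use, 11 of its other 102 lncRNAs were detected on exactly 1 array. Gm5532 was too, while Nrap was detected on none. Among all probes, 6.43% were detected on exactly 1 line array. Whether the heart-specific list differed from all probes in this was not tested.

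The cell lines give the comparison that the choice of the 2 lncRNAs left untouched, and there neither was called different. With limma on the 9 line arrays, 0 of 6 differences (each lncRNA in F9 against GC-1, F9 against GC-2 and GC-1 against GC-2) had an adjusted p of 0.05 or less, and the adjusted p-values ran from 0.0530 to 0.844. Across all probes, 23.5%, 23.3% and 9.23% were called in these comparisons. Of the 6 differences, 2 had an unadjusted p under 0.05 by limma and 2 by the methods' t-test, which gave 0 calls after Benjamini-Hochberg adjustment. Those 2 by limma were Nrap in F9 against GC-1 and against GC-2. Before scaling, the Nrap intensities in F9 (3.80 to 4.28) overlapped those in GC-1 (3.34 to 4.13) and in GC-2 (3.51 to 3.89). The median log2 difference of all probes was 0.40 and 0.52 in these comparisons, with F9 the higher, and ranged down to 0.02 and 0.01 under the other scalings.

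With the slide as a block, both Nrap differences were called (adjusted p = 0.0217 and 0.0102 by limma), which made 2 of 6. No size is given for them, since the Nrap probe was not well above background on any of these arrays and its intensities there spanned only 3.34 to 4.28. A level below the limit of these arrays was not detectable, which does not show that the transcripts were absent from the lines.

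Pattern over the 24 arrays was described by Pearson's r of the log2 level, among the 3478 probes that could be identified. Such an r is set almost wholly by the 3 heart arrays against the 21 others, and identified probes were largely picked by tissue. The probes most like Nrap were AK085761 (r = 0.97), AK045129 (r = 0.97), Plin4 (r = 0.96), Gm15934 (r = 0.96) and Myoz2 (r = 0.96). Those most like Gm5532 were AK085761 (r = 0.96), Gm14492 (r = 0.94), C230038L03Rik (r = 0.93), Gm19277 (r = 0.93) and AK085954 (r = 0.93). Nrap and Gm5532 had an r of 0.94 with each other. All of these probes are on the heart-specific list.

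Within heart, the named lncRNAs did not rise and fall together. Nrap was 0.72 below its heart mean in replicate 2, on the log2 scale, and 0.20 and 0.52 above it in replicates 1 and 3. Gm14492 had the same order, at -0.92 in replicate 2 and at 0.35 and 0.57 in the others. C230038L03Rik and AK085954 had this order too, with smaller deviations. None of the other probes named as most like Nrap or Gm5532 had it. Myoz2, the lncRNA at the gene of the Z-disc protein myozenin 2, went the other way, with 0.71 in replicate 2 and -0.27 and -0.44 in the others. Gm19277 was lowest in replicate 3, at -1.14. Gm5532 stayed within -0.16 and 0.09 of its mean. With 3 arrays these orders are given as values only.

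The work of heart muscle rests on Z-discs, on intercalated discs, at which the Nrap protein sits, and on sarcomere filaments. It also rests on calcium handling, on conduction and on a set of transcription factors and RNA regulators. Of 85 genes listed for these roles, 14 had an identified lncRNA probe at their locus. On 4 of them, Tnni3k, Myoz2, Palld and Myl3, the heart-specific list had already been drawn from the same comparison, so their higher heart levels are no finding. The other 10 came from the study's lists of lncRNAs detected in brain or in F9, of which only the first part was read here, so they were not picked for heart, but detection in those samples was part of how they came to be named. Of these 10, the transcripts of Tpm1, Atp2a2 and Ccdc141 lie in sense orientation over exons of their genes. Whether their probes also bind the mRNAs of these genes was not tested.

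Tpm1, which encodes the thin filament protein tropomyosin 1, had the lncRNA ENSMUST00000129733, in sense orientation over exons of the gene at chr9:67022590-67049672. Its intensity was 234444, 159292 and 159465 in heart, and it was detected on all 24 arrays. Its level rose in heart against each tissue (limma, adjusted over 60804 probes): by 6.89 over brain (SE 0.20, adjusted p = 3.89e-12), 7.38 over kidney (1.32e-12), 8.97 over liver (1.62e-13) and 10.05 over testis (1.24e-13) on the log2 scale. This was the only one of the 10 to be higher in heart than in all 4 tissues. It differed from Nrap and Gm5532 in the lines, where it stood at 3.98 ± 0.18 for F9, 6.84 ± 0.39 for GC-1 and 7.09 ± 0.33 for GC-2 (level, SD, n = 3).

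Of the 10 lncRNAs, 1 was higher in heart than in brain and 3 were lower, while 35.5% of all probes were called higher and 14.3% lower in that comparison. Against kidney, 3 were higher and 3 lower (all probes: 13.1% and 11.6%). Against liver, 5 were higher and 1 lower (15.7% and 48.2%), and against testis 6 were higher and 3 lower (63.6% and 19%). The median difference of the 10 was 0.01, 0.05, 0.42 and 1.57 in this order, and that of all probes 0.62, 0.04, -0.88 and 1.55. The split of all calls depended on the scaling: the share that was higher in heart was 71.3% against brain, 53.0% against kidney, 24.5% against liver and 77.0% against testis, and under the other scalings and background correction it ran from 36.5% to 83.8%, 48.7% to 63.2%, 21.6% to 87.3% and 58.0% to 84.0%. For the lines, the share of calls was 55.1% higher in F9 than in GC-1 (36.2% to 58.8%) and 57.5% higher in F9 than in GC-2 (36.8% to 71.6%). None of the directions called for the 10 turned under another scaling. Apart from Tpm1, these 10 lncRNAs thus had no common direction. The median of the 10 lay close to that of all probes against kidney and testis, below it against brain and above it against liver. Whether the 10 differed from all probes was not tested. Detection in brain or F9 was part of how they came to be named. The lncRNAs of Tnni3k, Myoz2, Palld and Myl3, which are on the heart-specific list, were not counted here.

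Among the regulators, AK156916, an antisense transcript at Mef2c, the gene of a muscle and neural transcription factor, rose in heart over kidney by 3.53 (SE 0.24, adjusted p = 2.48e-08), over testis by 4.85 (adjusted p = 1.71e-10) and over liver, where it was not detected, by at least 28.5-fold (adjusted p = 2.35e-10, and a smaller difference, 3.30 on the log2 scale, with normexp). Against brain it differed by -0.59 (adjusted p = 0.0535 by limma), a difference that was called under 7 of the 24 alternatives, the 3 other scalings among them. Gm13205, antisense to the heart and neural factor gene Casz1, fell by 4.65 in heart against brain (adjusted p = 6.17e-06), fell by 2.33 against kidney and fell by 2.82 against testis, and was called higher than in liver, where 1 of 3 arrays detected it, by 1.59 (adjusted p = 0.0183). Ccdc141 rose over testis alone (1.38, adjusted p = 4.84e-05), and this was not called under the 3 other scalings. Gm16298, within an intron of the splicing regulator gene Rbm20 and antisense to it, fell by 1.12 against kidney (adjusted p = 0.0405), and that call was lost under 15 of the 24 alternatives. The calls of Gm13205 against kidney and liver were lost with the slide as a block and by the methods' t-test (adjusted p = 0.0674 and 0.171 in the latter). Against liver the difference was 0.26 with normexp (adjusted p = 0.371 by limma) and 0.88 without liver replicate 2 (adjusted p = 0.106), and its call was also lost without heart replicate 1 or 3 (adjusted p = 0.0564 and 0.0539 by limma).

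Among the genes of calcium handling and conduction, the lncRNA of Atp2a2, the gene of the calcium pump of the sarcoplasmic reticulum, fell by 4.90 in heart against brain (SE 0.47, adjusted p = 8.77e-07). It rose by 2.39 against testis (adjusted p = 0.000308), or 1.33 with the array median. Against liver, where 1 of 3 arrays detected it, it was called higher by 1.60 (adjusted p = 0.00891), but the difference was 0.34 with normexp (adjusted p = 0.137) and the call was lost by the methods' t-test (adjusted p = 0.103) and with the slide as a block (adjusted p = 0.0764). 4931430N09Rik, antisense within an intron of the calcium channel gene Cacna1c, was not well above background on any heart array, and brain was at least 96.1-fold and testis at least 15.8-fold higher (adjusted p = 6.34e-11 and 7.81e-10 by limma). With normexp these differences, heart minus the other tissue, were -4.67 and -2.42 on the log2 scale, which is smaller than both bounds. Its call against liver (adjusted p = 0.00271) gives no fold, since neither tissue was above background. Kcnq1ot1, the long antisense transcript of the imprinted Kcnq1 locus, rose by 0.84 over kidney, 0.78 over liver and 1.76 over testis. With the slide as a block, its calls against kidney and liver were lost (adjusted p = 0.227 and 0.132 by limma). The call against kidney was also lost by the methods' t-test (adjusted p = 0.126) and without heart replicate 2, kidney replicate 2 or kidney replicate 3 (adjusted p = 0.0653 to 0.0847 by limma). Against testis the difference was 0.71 with the array median, where the call was lost (adjusted p = 0.0611 by limma). 9330158H04Rik, antisense within the gene of the muscarinic receptor Chrm2, rose by 2.86 over testis (adjusted p = 3.09e-05). Outside this group, at a sarcomere filament gene, Gm11663 lay antisense within an intron of the atrial light chain gene Myl4. It fell by 1.70 against kidney and fell by 1.31 against testis.

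**Figure D3:**
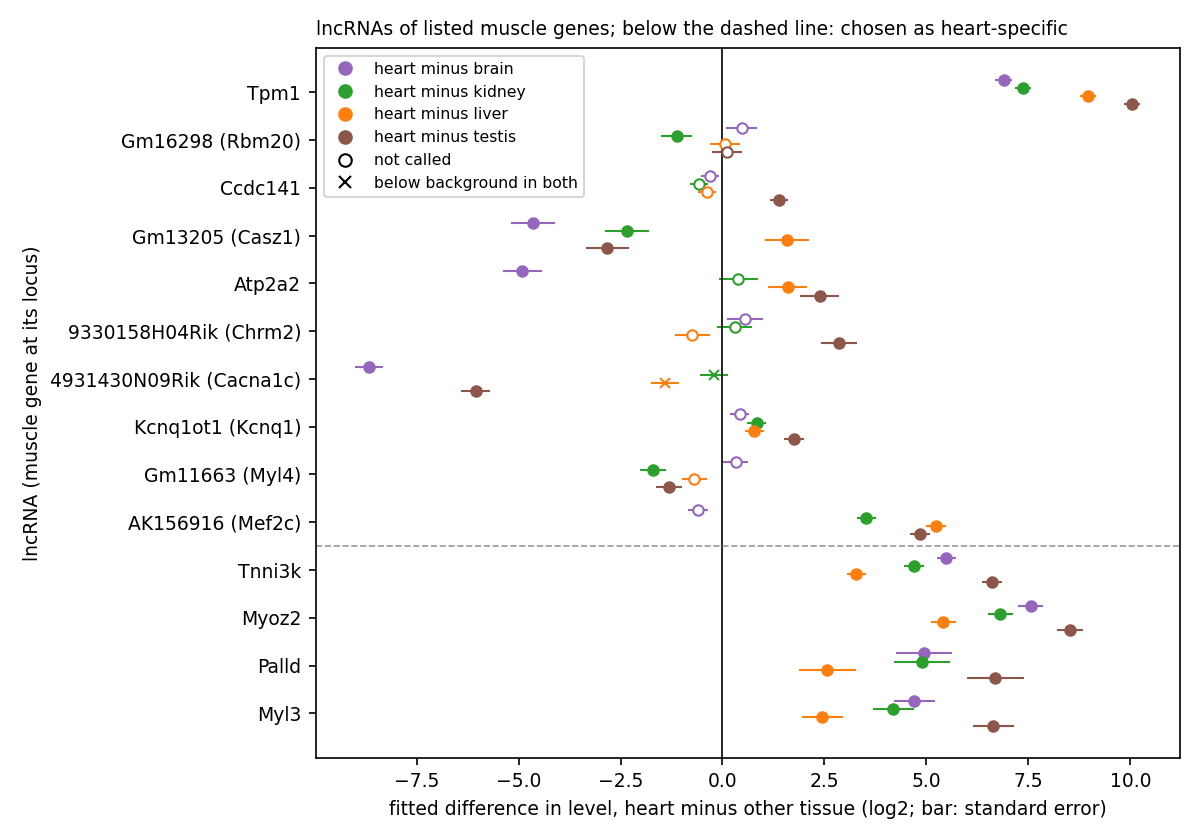
Fitted difference in level, heart minus each other tissue (log2, with the standard error as a bar), for the 14 lncRNAs at listed muscle genes; filled points had an adjusted p of 0.05 or less, and crosses mark pairs in which neither tissue was above background. Tpm1 lies between 6.89 and 10.05 to the right, the other 9 lncRNAs above the dashed line lie on both sides of 0, and the 4 below it had been chosen as heart-specific.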

How the data were processed

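Total RNA was labelled with Cy3 and hybridized to 24 one-colour arrays. The authors deposited, per array, Agilent Feature Extraction 11.5.1.1 output, whose processed signal is an intensity after the software's background subtraction, not normalized between arrays, and a matrix that holds the same values (largest relative difference 0.000228). Groups came from the sample labels. Probe identities came from the study's supplementary lists, whose values were not used. The copies read here hold only part of the longest lists, and they identify 3478 of 60804 probes (5.72%).

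Levels are log2 processed signals relative to each array's 75th percentile. limma 3.58.1 in R 4.3.3 (lmFit, eBayes, two-sided) was fitted to the 9 line arrays and to the 15 tissue arrays, 1 coefficient per group, with Benjamini-Hochberg adjustment over all probes. A probe not well above background on any array of a group gave only a bound there. On simulated data with independent noise and 200 of 60804 probes changed by 3.5 (log2), 91.5% were recovered for F9 minus GC-1 and 93.5% for heart minus brain. The false calls were 10 and 13. Smaller changes were not simulated, and far more probes were called in the data, so these shares give no power for the line differences. The scanner files give no mean spot signal, so the normexp alternative (offset 50) used the median.

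Named were both lncRNAs, all identified probes at genes of 4 muscle lists (1 listed gene is not reported here), probes within 100 kb, and the 5 probes most correlated with each. The members and lists were chosen with earlier results of these data known. Alternatives were other scalings, normexp, the matrix, a filter on dim probes, other detection flags, slide and replicate blocks, the methods' t-test, and leaving out each array. The bounds under other scalings and normexp were added after the data were seen. Promoter sequences and gene positions are from RefSeq (GRCm38.p6). Of 153 listed transcripts found there, 150 lay inside their gene. Arrays give no counting depth, and 3 per group limits the precision. Python 3.11.15, numpy 2.4.6, pandas 2.3.3 and matplotlib 3.10.9 were used.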

Additional observations from a re-analysis of the deposited data

How the results depend on the processing

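The fitted heart level minus that of the highest other group, with signals at background taken as they stand, kept its direction under every alternative run. A higher level in heart than in the other tissues was part of the choice, so this direction was fixed beforehand and is no support. The difference is no bound, and which group was highest changed between settings (liver, kidney or brain). It was 8.78 (log2) for Nrap and 8.39 for Gm5532, and with normexp it was 5.39 and 5.52, less than the lowest bounds with the scanner's background correction (6.82 and 7.13). For Gm5532 it was 8.62 with the array median of detected probes, 8.69 with the percentile over probes detected on all arrays and 8.60 with quantile normalization. Leaving out each array gave 8.52 to 9.13 for Nrap and 8.12 to 8.88 for Gm5532. Those lowest bounds were 5.20 and 5.52 with normexp, 8.09 and 8.32 with the array median and, for Gm5532, 7.43 with the percentile over probes detected on all arrays, all chosen after the data were seen, and 6.56 to 7.18 and 6.97 to 7.29 when arrays were left out. When the flag for a positive and significant signal set the floor, the floor lay below the probes' own liver signals, and the values (8.78 and 8.39) are fitted differences, not bounds. With that flag, Nrap was detected on 10 of the 21 other arrays in place of 0, and Gm5532 on 10 in place of 5. Of the 6 line differences, 0 were called, against 1 with normexp (Nrap, F9 minus GC-2), 2 with the slide as a block and 0 to 2 when arrays were left out (2 without F9 replicate 1). The correlation of deviations between same-numbered line arrays was 0.20 to 0.29 for replicate 1, which shared slide 1, 0.11 to 0.14 for replicate 2 and 0.07 to 0.13 for replicate 3. In the tissues it was as low as -0.14. Not every pair was over 0.1, so the numbers were not taken as pairs. With a replicate block, 2 line differences were called, and 2 muscle lncRNAs were lower in heart than in liver in place of 1. Under the filter on dim probes neither lncRNA was left in the line fit. Counts of the 10 muscle lncRNAs moved as follows. Those lower than in brain were 3, and 5 under each of the 3 other scalings, normexp and the methods' t-test. Those lower than in kidney were 3, and 1 with the slide as a block. Those higher than in liver were 5, and 3 with normexp or the t-test and 2 with the slide as a block. Those lower than in liver were 1, and 0 with the array median, quantile normalization or normexp, and 1 to 2 when arrays were left out (2 without liver replicate 1 or 3). The cause of these changes was not tested.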
